A study of Mus musculus with 8 samples.

Results

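Dense clusters of WFS1 ChIP-seq peaks were described in proliferating C2C12 myoblasts, a mouse line of muscle precursor cells that fuse to myotubes when serum is withdrawn. Peaks called after 30 and after 36 sonication cycles were joined where they overlapped, which gave 22020 combined peaks on the 19 autosomes. Combined peaks separated by 12500 bp or less were stitched into 13541 regions, and every region with 5 or more peaks was kept. This gave 492 dense clusters (3.63% of the regions) with 3277 peaks (14.9% of the peaks). The members were thus chosen by the positions of the peaks, so that the number of peaks, their gaps and the span of a cluster are descriptions and carry no test.

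Both lists came from wildtype C2C12 cells crosslinked with DSG and formaldehyde and from 1 immunoprecipitation with a WFS1 antibody. The chromatin was sonicated for 30 cycles, and a part of the precipitate for 6 further cycles, 36 in total. Of the 8 libraries of the experiment, these 2 were used, while the 4 inputs and the ChIP libraries of WFS1 knockout myoblasts that express WFS1-FlagTag were not analysed here. With 1 library per condition and no read counts in the lists, no test between conditions was possible. Sequencing depth is unknown here, and the 95% Wilson intervals given in square brackets cover the counting error over peaks or clusters only, although peaks of 1 cluster are not independent of each other.

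WFS1, also called wolframin, is a membrane glycoprotein of the endoplasmic reticulum that is mutated in Wolfram syndrome, and the study asked where WFS1 at the inner nuclear membrane contacts the genome. In ChIP-seq of transcription factors and coactivators, neighbouring peaks are often stitched over such distances as a first step to find super-enhancers, which are then ranked by signal. The lists used here hold no signal, so the clusters are named only by the number of their peaks and by the genes in them. Motifs known from muscle precursor cells are the E-box CAGCTG, bound by MYOD1 and other myogenic factors, TGACTCA, bound by AP-1 dimers such as FOS with JUN, and TGTGGT, the core bound by RUNX factors.

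The central 200 bp of the widest peak found in both lists are shown for the 6 clusters with the most peaks, since these windows are the middle of the widest peaks in the largest clusters. They are given 5′ to 3′ on the plus strand of GRCm38, and capitals mark CAGCTG (its own reverse complement), the motif TGACTCA or its reverse complement TGAGTCA, and TGTGGT or its reverse complement ACCACA. None of these motifs overlapped in the windows shown.
Neat1 of the Malat1 and Neat1 cluster, chr19:5843020-5843219: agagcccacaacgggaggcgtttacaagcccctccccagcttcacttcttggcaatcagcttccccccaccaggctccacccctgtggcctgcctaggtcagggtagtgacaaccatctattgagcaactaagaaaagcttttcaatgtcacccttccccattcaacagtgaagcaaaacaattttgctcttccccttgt
Lncppara cluster, chr15:85654060-85654259: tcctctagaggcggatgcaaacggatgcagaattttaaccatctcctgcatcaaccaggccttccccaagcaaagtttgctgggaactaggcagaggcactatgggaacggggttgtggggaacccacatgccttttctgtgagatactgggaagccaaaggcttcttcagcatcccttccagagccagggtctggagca
2010111I01Rik cluster, chr13:63108360-63108559: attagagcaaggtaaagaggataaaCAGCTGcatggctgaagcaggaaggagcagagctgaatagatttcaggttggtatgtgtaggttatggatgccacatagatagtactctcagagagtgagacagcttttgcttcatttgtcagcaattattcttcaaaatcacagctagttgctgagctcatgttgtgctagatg
Vmp1 and Mir21a cluster, chr11:86578677-86578876: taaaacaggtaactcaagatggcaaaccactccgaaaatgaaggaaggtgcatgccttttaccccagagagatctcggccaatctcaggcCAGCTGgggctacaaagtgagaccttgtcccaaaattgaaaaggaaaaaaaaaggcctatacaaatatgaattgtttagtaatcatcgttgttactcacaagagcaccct
Hoxa cluster, chr6:52229339-52229538: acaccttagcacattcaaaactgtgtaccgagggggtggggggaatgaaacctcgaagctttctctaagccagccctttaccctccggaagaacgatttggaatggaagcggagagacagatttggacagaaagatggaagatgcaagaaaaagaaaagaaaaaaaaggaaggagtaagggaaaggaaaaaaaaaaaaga
Abt1 and Btn1a1 cluster, chr13:23438289-23438488: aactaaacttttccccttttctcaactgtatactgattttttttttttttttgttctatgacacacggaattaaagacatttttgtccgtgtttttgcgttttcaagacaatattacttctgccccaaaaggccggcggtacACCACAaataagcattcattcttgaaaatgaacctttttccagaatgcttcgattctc
Of these 6 windows, 3 held none of the 3 motifs, 2 held CAGCTG and 1 held ACCACA. Windows with TGACTCA are shown from the Ddit4 cluster, where those printed lie in peaks of both lists, and from the Myf6 cluster, where both lie in peaks of the 30-cycle list only. These were chosen after their motifs were seen.
Ddit4 cluster, chr10:59909535-59909734: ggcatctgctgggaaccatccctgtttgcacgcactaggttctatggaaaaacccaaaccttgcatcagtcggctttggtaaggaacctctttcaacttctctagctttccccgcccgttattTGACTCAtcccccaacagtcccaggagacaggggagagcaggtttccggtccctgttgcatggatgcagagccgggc
Ddit4 cluster, chr10:59919645-59919844: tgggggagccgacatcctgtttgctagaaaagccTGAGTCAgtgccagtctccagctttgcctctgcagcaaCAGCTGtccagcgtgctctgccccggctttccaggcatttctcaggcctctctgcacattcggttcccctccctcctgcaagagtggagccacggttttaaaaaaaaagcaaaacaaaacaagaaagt
Myf6 cluster, chr10:107501868-107502067: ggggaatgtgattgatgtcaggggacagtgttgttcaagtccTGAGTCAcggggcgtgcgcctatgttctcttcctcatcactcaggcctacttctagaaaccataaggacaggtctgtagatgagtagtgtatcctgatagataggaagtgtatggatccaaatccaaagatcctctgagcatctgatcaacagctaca
Myf6 cluster, chr10:107502294-107502493: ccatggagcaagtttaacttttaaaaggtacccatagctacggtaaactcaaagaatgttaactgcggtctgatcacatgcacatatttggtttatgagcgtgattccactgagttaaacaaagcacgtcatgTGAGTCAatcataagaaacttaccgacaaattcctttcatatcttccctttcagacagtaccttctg
In each of these 4 windows the AP-1 motif occurred once, on the minus strand as TGAGTCA in 3 of them. The Ddit4 window at chr10:59919645-59919844 also held CAGCTG.

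Dense clusters of 5 or 6 peaks, at or next to the minimum, made up 314 of the 492. There were 203 clusters of 5 peaks, 244 of 6 to 9 peaks and 45 of 10 or more, with a median of 6 peaks and a highest number of 46. Just below the rule, 399 regions held 4 peaks and had a median span of 12.48 kb, against 15.7 kb for the clusters of 5 peaks. The span of all dense clusters ranged from 2.51 to 67.7 kb with a median of 18.8 kb, and peaks covered between 5.30% and 89.9% of it. Together the clusters spanned 10.3 Mb, or 0.429% of the autosomal bases that are not N.

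Neighbouring peaks within a cluster were separated by gaps between 1 bp and 12.49 kb, with a median of 1.53 kb. Of the 2785 gaps, 855 (30.7%) were at most 0.5 kb, 1244 (44.7%) were over 0.5 kb and up to 5 kb, and 686 (24.6%) were longer. The clusters therefore mix tight groups of peaks with peaks that stand far apart. In 92 clusters the largest gap was over 11 kb, close to the limit of 12500 bp, and 55 clusters had a further peak beyond the limit but at most 14 kb from their edge. The same was true of 43 of the regions with 4 peaks, which would have been kept with a slightly wider gap.

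**Figure D1:**
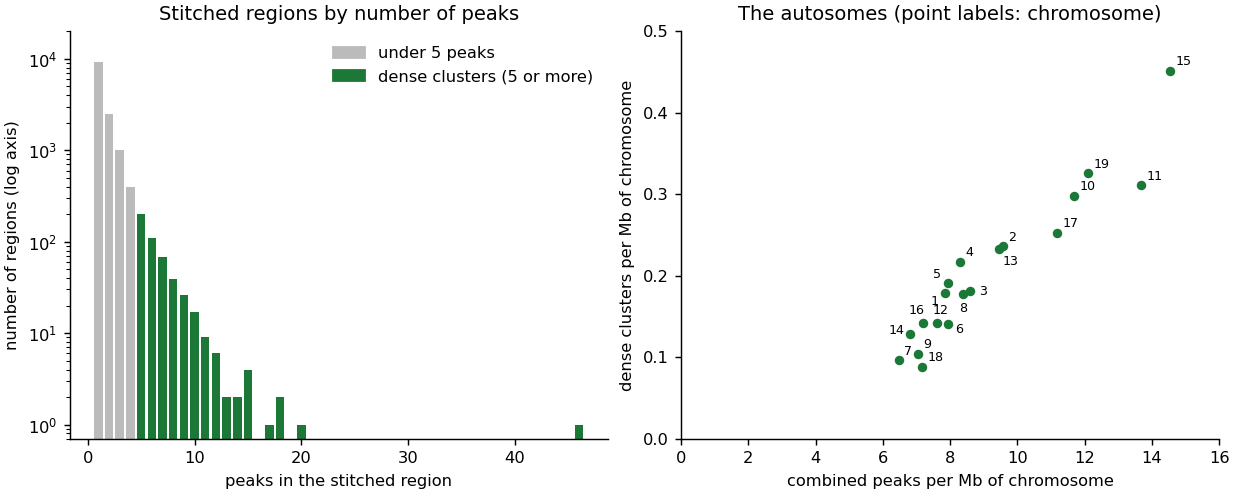
Left, the number of stitched regions (log axis) by the number of peaks in them, with the 492 dense clusters in green and 9159 single-peak regions as the first bar. Right, each point is 1 autosome, placed by its combined peaks per Mb and its dense clusters per Mb, with chromosome 15 highest on both axes.

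The clusters were spread unevenly over the autosomes. Chromosome 15 held 47 clusters, or 0.452 per Mb, and chromosome 18 held 8, or 0.0882 per Mb, against 0.20 per Mb over all autosomes. This was a 5.12-fold range, while combined peaks per Mb differed 2.24-fold between the highest and the lowest chromosome. The share of a chromosome's peaks that lay in dense clusters was 21.8% on chromosome 15, 21.4% on chromosome 19 and 7.53% on chromosome 18. More peaks per Mb and more clusters per Mb went together, as the rule makes likely.

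The cluster with the most peaks spanned Malat1 and Neat1, which are neighbouring genes for abundant nuclear long non-coding RNAs. It lay at chr19:5786046-5852183, with 46 peaks over 66.1 kb, and peaks covered 43.5% of this span. Neat1, which scaffolds paraspeckles, held 16 peaks, of which 8 were in both lists, 5 in the 30-cycle list only and 3 in the 36-cycle list only. Malat1, whose RNA gathers in nuclear speckles, held 9 peaks, and of these 0 were in both lists, 1 in the 30-cycle list only and 8 in the 36-cycle list only. Over the whole cluster, 18 peaks were in both lists, 10 in the 30-cycle list only and 18 in the 36-cycle list only. The widest peak of the cluster was 3285 bp, and 8 of its 46 peaks lay within 1 kb of an annotated start site.

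The cluster next in number held 20 peaks at chr15:85653437-85686959, all of them within the long non-coding gene Lncppara. Of these, 4 were in both lists, 7 in the 30-cycle list only and 9 in the 36-cycle list only. The nearest protein-coding start site was that of Ppara, a lipid-sensing nuclear receptor, 48.0 kb away. This cluster depended on narrow peaks, with a median width of 305.5 bp, and only 2 of its 20 peaks held any of the 3 motifs.

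The cluster with the longest span lay inside the protein-coding gene 2010111I01Rik at chr13:63087815-63155484, with 18 peaks over 67.7 kb and 123 kb from the start site of that gene. It held 8 peaks of both lists, 7 of the 30-cycle list only and 3 of the 36-cycle list only. Its largest gap was 12.3 kb, so that it would have been split by a slightly narrower limit. The same held for the cluster of next longest span, which held Abt1, a nuclear activator of basal transcription, and Btn1a1, a butyrophilin gene, at chr13:23400855-23467307. That cluster had 15 peaks over 66.5 kb, with a largest gap of 12.4 kb, and 11 of its peaks were in both lists. The Malat1 and Neat1 cluster was the third of the longest clusters, and its largest gap was 4.96 kb.

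At Vmp1, which encodes an endoplasmic reticulum protein of autophagy, 18 peaks lay at chr11:86569589-86608248 around the 3′ end of the gene. Of these, 11 were in both lists, 3 in the 30-cycle list only and 4 in the 36-cycle list only, and the median peak width was 603 bp. Mir21a lies at this end of Vmp1, and the nearest peak was 239 bp from its hairpin. The cluster held no protein-coding start site, and that of Tubd1, the nearest one outside, was 24.6 kb away.

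The Hoxa cluster had 17 peaks at chr6:52213139-52249434. It held the start sites of Hoxa3, Hoxa7, Hoxa9, Hoxa10 and Hoxa11, homeobox genes of body patterning, together with Gm28308 and Mir196b. Only 3 of its peaks were in both lists, against 8 in the 30-cycle list only and 6 in the 36-cycle list only. Hoxa9 held 8 of the peaks, Hoxa10 held 5 and Hoxa7 held 0. The peaks were thus gathered over the middle of the cluster, and 8 of the 17 lay within 1 kb of an annotated start site.

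**Figure D2:**
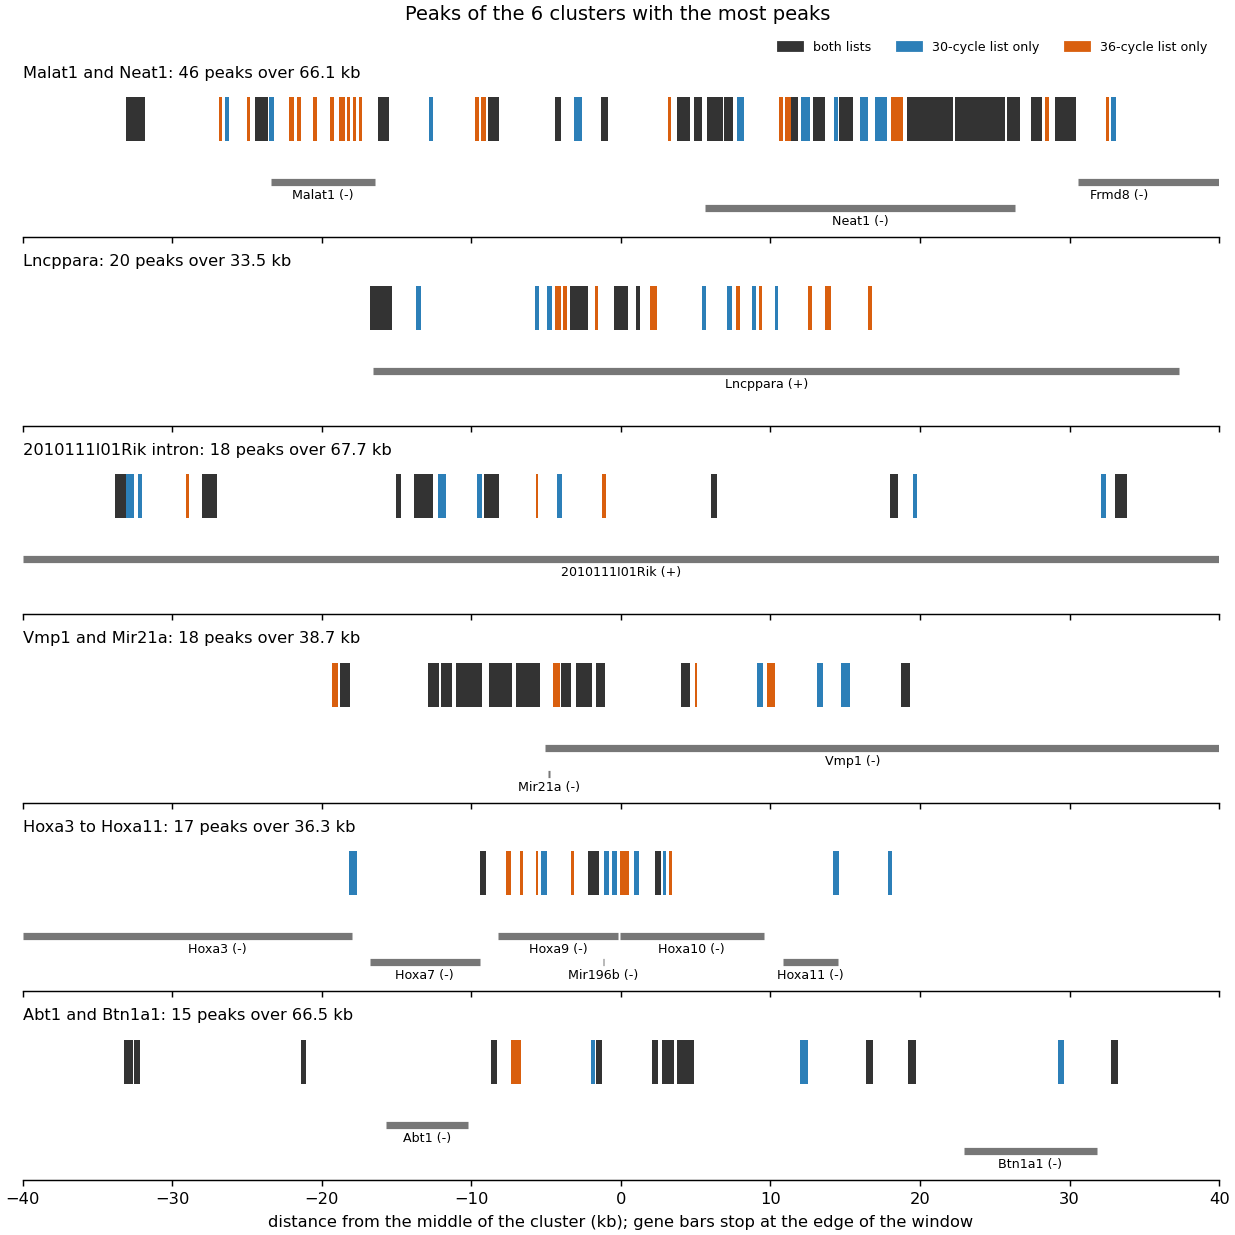
Peaks of the 6 dense clusters with the most peaks, drawn to scale by distance from the middle of each cluster in kb, with grey bars for selected genes and their strand. Black marks peaks of both lists, blue the 30-cycle list only and orange the 36-cycle list only, and the 8 orange peaks over Malat1 contrast with the 8 black peaks over Neat1.

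Among the other clusters that complete the 12 with the most peaks, Ddit4 was flanked on 1 side. Ddit4 encodes an inhibitor of mTORC1 signalling that is induced by stress. Its cluster at chr10:59899918-59953199 had 15 peaks, 14 of them downstream of the start site and 0 within the gene body, so that they lay beyond its 3′ end. Of the 15 peaks, 8 were in both lists, 5 in the 30-cycle list only and 2 in the 36-cycle list only. The widest peak spanned 1503 bp and the peak at the start site 1163 bp.

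Lmna, which encodes lamins A and C, showed the opposite arrangement, with most peaks inside the gene. Of the 15 peaks at chr3:88488318-88514224, 12 had their centre in Lmna, and of these 4 were in both lists, 0 in the 30-cycle list only and 8 in the 36-cycle list only. The only peaks of the 30-cycle list alone, 2 in number, lay upstream of the gene. The peak over the start site was in both lists and the widest of the cluster, with 2142 bp.

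Syne3, which encodes nesprin-3 of the outer nuclear membrane, also held most of its peaks in its body. Its cluster at chr12:104969426-105013445 had 14 peaks over 44.0 kb, 12 of them in the gene. Here 7 peaks were in both lists, 6 in the 30-cycle list only and 1 in the 36-cycle list only. Lmna and Syne3 therefore differed in the list that held their remaining peaks.

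Long non-coding and miRNA genes marked several of the remaining clusters. A cluster of 15 peaks at chr8:70965093-71006965 lay wholly in the long non-coding gene 1700026F02Rik, 59.2 kb from the nearest protein-coding start site, that of Map1s. This cluster had the highest median share of repeats in its peaks among the 12, 36.6%, against 12.4% for all peaks in dense clusters. A cluster of 14 peaks at chr6:31061925-31108317 held Mir29a and Mir29b-1 and part of the long non-coding gene Lncpint, with 8 peaks of both lists. The nearest protein-coding start site, that of Klf14, was 103 kb away.

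The 3 clusters with the most peaks per kb were short, and 2 of them lay next to or over a start site. At Ralgds, a GTPase exchange factor, 5 peaks fell within 2.51 kb at chr2:28523663-28526168, 10.54 kb from the start site, and 1 of them was in both lists. At Cdh13, a cadherin gene, 6 peaks fell within 3.22 kb at chr8:118283961-118287175, of which 1 was in both lists and 5 in the 36-cycle list only. At Jun, an AP-1 gene, 6 peaks fell within 3.84 kb at chr4:95050040-95053882, of which 0 were in both lists, 2 in the 30-cycle list only and 4 in the 36-cycle list only. Their gaps were at most 0.315, 0.374 and 1.32 kb. Lists without signal cannot show whether such peaks are pieces of 1 broad signal.

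Of the myogenic factor genes Myf6, Myf5 and Myod1, the first started in a dense cluster, Myf5 bordered the same cluster and Myod1 had none. Myf6, also called MRF4, is a myogenic factor whose start site lay inside a cluster of 5 peaks at chr10:107486700-107504218. Of these peaks, 2 were in both lists and 3 in the 30-cycle list only, with widths of 370, 791, 270, 251 and 1479 bp along the chromosome. The gaps between them were 12175, 1797, 166 and 220 bp, so the cluster was kept through a gap just under the limit. Myf6 itself lay wholly in the gap of 12175 bp, and the nearest peak edge was 4.508 kb from its start site. The first peak ended the cluster 0.566 kb from the start site of Myf5, the neighbouring myogenic factor. Upstream of Myod1, the 2 peaks within 50 kb, 586 bp wide in both lists and 333 bp wide in the 30-cycle list only, were 11144 bp apart and formed a region of 2 peaks.

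Fewer clusters held a protein-coding start site than did not. A protein-coding start site lay in 182 of 492 clusters (37.0% [32.8, 41.3]), and 40 clusters held at least 2. Counted up to 12500 bp beyond the edges, the share was 51.0%, so that the majority depended on this distance. Another 93 held only start sites of other genes, such as long non-coding RNA genes. Of the 310 clusters without a protein-coding start site, 160 overlapped a protein-coding gene, and the distance to the nearest protein-coding start site ranged from 0.026 to 1169 kb with a median of 41.6 kb. In all, 140 clusters lay wholly inside 1 protein-coding gene, and 80 overlapped no annotated gene.

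Some clusters were far from any protein-coding gene start. In 69 of the 310 clusters the distance was over 100 kb, and in 8 it was over 500 kb. The most distant was a cluster of 7 peaks at chr10:16524104-16554019, 1169 kb from Cited2, a transcriptional coregulator. The next 2 were neighbours on chromosome 15, with 10 peaks at chr15:23562250-23601310 and 8 peaks at chr15:23481315-23510609, 1013 and 932 kb from the cadherin gene Cdh18. These 3 were chosen after the distances were seen.

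All but 3 clusters held calls from both libraries. There were 0 of 492 clusters without a 30-cycle call, which allows a share of up to 0.610% (3 counts of the total), and 3 without a 36-cycle call, while 22 (4.47% [2.97, 6.68]) held no peak that both lists shared. At least 2 shared peaks were found in 364 clusters (74.0% [69.9, 77.7]). Over all autosomal combined peaks, 35.6% were in both lists and 45.4% in the 30-cycle list only. The rule gives every cluster 5 or more peaks that could each be shared or have a 30-cycle call, which raises these counts by itself. They are therefore descriptions and do not show that the lists agree more in clusters. In 119 clusters, 5 or more peaks had a call in each list, so that they met the minimum number in either. The number of peaks with a 30-cycle call had a median of 5 per cluster, and that with a 36-cycle call a median of 4.

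Peaks of only 1 list were divided unevenly. In 258 clusters there were more peaks of the 30-cycle list only, in 139 more of the 36-cycle list only, and in 95 as many of one as of the other. Over all combined peaks, 45.4% were in the 30-cycle list only and 19.0% in the 36-cycle list only, against 35.1% and 23.6% in dense clusters. Peaks of the 30-cycle list only were thus more numerous everywhere, and less so in clusters. Of the 36-cycle-only peaks in clusters, 56.1% had another peak within 0.5 kb, against 37.7% of the 30-cycle-only peaks and 43.9% of the peaks in both lists. The 36-cycle-only peaks were also the narrowest, with a median of 262 bp, against 331 bp for the 30-cycle-only peaks and 692.5 bp for those of both lists. Joining overlapping peaks can widen those of both lists.

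**Figure D3:**
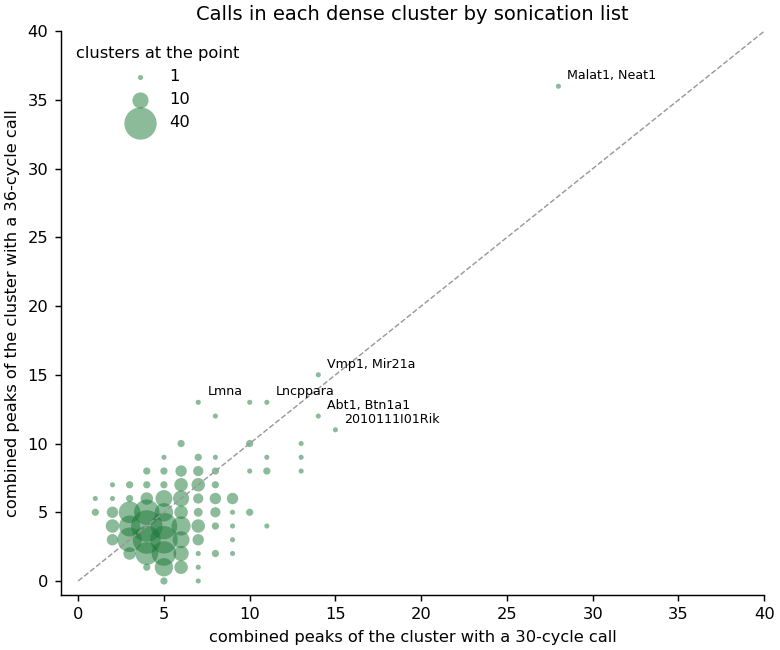
Each dense cluster by the number of its combined peaks with a 30-cycle call (horizontal axis) and with a 36-cycle call (vertical axis), where the area of a circle gives the number of clusters and the dashed line marks equal numbers. The Malat1 and Neat1 cluster stands apart at 28 and 36 peaks, and the Lmna cluster lies above the line at 7 and 13.

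Clusters were also set from each list alone, which leaves the peaks of the other list outside the rule. The 30-cycle list alone gave 281 clusters over 0.262% of the autosomal bases that are not N, and 258 of the 4184 peaks called in the 36-cycle list only (6.17% [5.48, 6.94]) had their centre inside them. This was 23.5 times the share of the bases. The 36-cycle list alone gave 212 clusters over 0.163% of the bases, which held 191 of the 9993 peaks called in the 30-cycle list only (1.91% [1.66, 2.20]), or 11.8 times that share. At least 1 such peak was found in 144 of the 281 and in 106 of the 212 clusters. Both lists come from the same immunoprecipitation, so they are not independent samples. Their peaks are likely to lie near each other for that reason alone. The ratios to the share of bases are therefore descriptions and cannot show that clusters recur.

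Peaks in dense clusters were more often shared by both lists than peaks that stood alone. Over all autosomal combined peaks, 35.6% were in both lists. The share was 41.3% [39.6, 43.0] in dense clusters (1352 of 3277) and 31.2% [30.3, 32.2] for the 9159 peaks that were the only peak of their region, a difference of 10.03 percentage points [8.10, 11.97] by the Newcombe interval. Regions of 3 to 4 peaks, just below the rule, were close to the dense clusters with 39.3% [37.9, 40.7], so the sharing is not particular to regions of 5 or more. Peaks of the 30-cycle list only made up 35.1% in dense clusters and 53.1% of single peaks, and those of the 36-cycle list only 23.6% and 15.7%. Peaks in dense clusters were wider, with a median of 414 bp against 357 bp. With single peaks weighted to the widths of the cluster peaks in 5 classes, the difference in sharing fell to 2.20 points. The direction was not the same in all classes. Cluster peaks were more often shared in the 3 wider classes, as in the widest, from 636 bp upwards, with 88.0% [85.7, 90.0] against 84.0% [82.0, 85.8] of single peaks. In the 2 narrowest classes the shares were 0.317% [0.0870, 1.15] against 0.912% [0.578, 1.44] and 9.01% [6.88, 11.7] against 9.80% [8.58, 11.2].

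Counted by peak, those in dense clusters lay less often within 1 kb of an annotated start site. The share over all combined peaks was 16.8%. It was 14.2% [13.1, 15.5] in dense clusters and 18.1% [17.3, 18.9] for single peaks, a difference of -3.87 points [-5.28, -2.41], and 12.4% [10.6, 14.5] in clusters of 8 or more peaks. Regions of 3 to 4 peaks were at 14.95% [13.95, 16.01], no higher than those of 5 to 7 (15.2% [13.7, 16.7]), so this too was already seen below the rule. For protein-coding start sites alone the shares were 9.15% and 14.6%. The difference depended on the distance used, since it was 0.62 points in the other direction when 2.5 kb were allowed and -0.82 points with every annotated transcript start. Counted by cluster, 251 of 492 (51.0% [46.6, 55.4]) held at least 1 peak at a start site, and each had 5 or more peaks that could lie there. The lower share by peak therefore does not mean that clusters lie away from start sites. Peaks in dense clusters lay in introns in 44.0% and between genes in 35.9%, against 40.4% and 37.4% of single peaks, and introns held 46.4% of the peaks in regions of 3 to 4. Exons of non-coding genes held 2.96% [2.43, 3.60] of cluster peaks and 1.45% [1.23, 1.72] of single peaks.

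The AP-1 motif was less frequent in clusters than in single peaks. TGACTCA, read on both strands in the central 200 bp, occurred in 3957 of the 22020 combined peaks and in 3.14% of 11979192 windows of 200 bp that tile the autosomes. It was found in 14.4% [13.3, 15.7] of cluster peaks and 19.4% [18.6, 20.3] of single peaks, a difference of -5.01 points [-6.44, -3.53]. The share went from 19.4% over 18.3% in regions of 2 peaks, 17.2% in those of 3 to 4 and 15.6% in those of 5 to 7 to 12.1% [10.4, 14.2] in those of 8 or more. Against windows of like GC content (3.25%), the share in dense clusters was still higher.

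The list in which a peak was found moved with this difference. Among peaks of the 36-cycle list only, TGACTCA was found in 8.90% [7.10, 11.1] of those in dense clusters and in 20.2% [18.2, 22.3] of those that stood alone. Among peaks of both lists the shares were closer, 18.4% [16.4, 20.6] and 21.8% [20.3, 23.4], and among peaks of the 30-cycle list only they were 13.48% [11.6, 15.6] and 17.8% [16.8, 18.9]. The share in dense clusters was lower in each of the 3 classes, and the distance was widest among the 36-cycle-only peaks.

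RUNX cores showed a similar difference. TGTGGT, a common hexamer, occurred in 24.7% of all combined peaks and 13.9% of the windows. Its share was 20.9% [19.6, 22.4] in dense clusters and 26.7% [25.8, 27.6] for single peaks, a difference of -5.73 points [-7.37, -4.04]. Among peaks of both lists the shares were 23.4% [21.2, 25.7] and 30.3% [28.6, 32.0]. Over the whole peak, which is wider in clusters, the difference was -1.44 points.

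For the myogenic E-box the difference was small and depended on the setting. CAGCTG occurred in 3963 of the 22020 combined peaks and in 7.37% of the windows, or 11.2% of windows of like GC content. It was found in 17.1% [15.8, 18.4] of cluster peaks and 18.02% [17.2, 18.8] of single peaks, a difference of -0.93 points with an interval that includes 0 [-2.41, 0.61]. With single peaks weighted to the GC content of cluster peaks it was -2.43 points and in the 36-cycle list alone -3.05 points, while over the whole peak CAGCTG was 4.40 points more frequent in clusters. The TEAD core GGAATG (15.7% and 15.4%) and the GC box GGGCGG (8.57% and 8.34%) also differed little, and the intervals of both differences include 0.

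**Figure D4:**
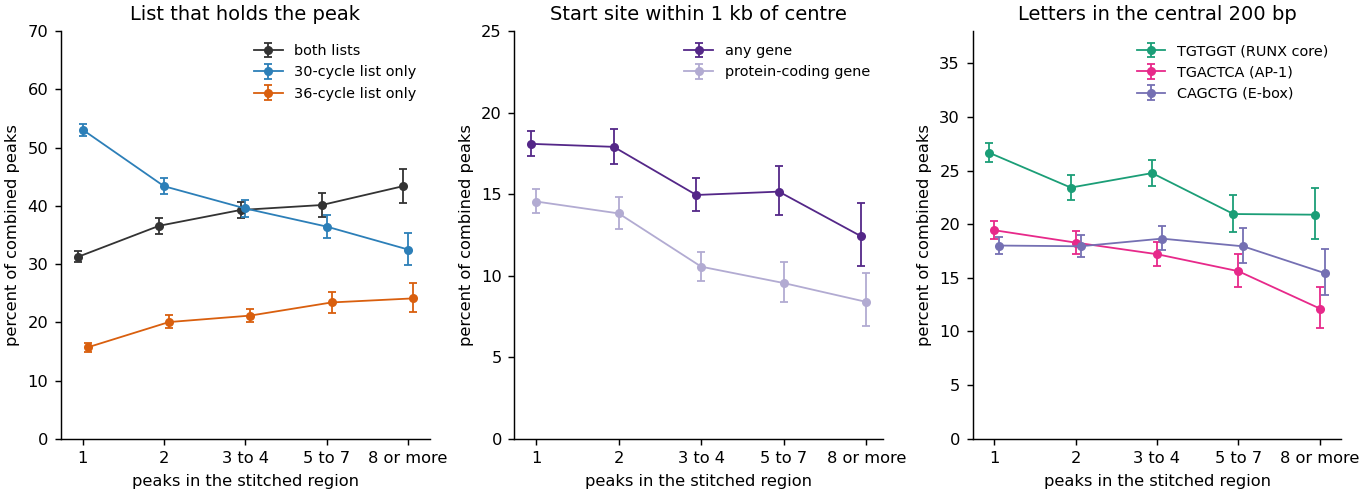
Percent of combined peaks by the number of peaks in their stitched region, with 95% Wilson intervals as bars, for the list that holds the peak (left), a start site within 1 kb of the peak centre (middle) and motifs in the central 200 bp (right). From single peaks to regions of 8 or more, the share in both lists goes from 31.2% to 43.4% and that with TGACTCA from 19.4% to 12.1%.

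Within clusters TGACTCA was not evenly distributed. It was found in 17.9% [14.8, 21.5] of the peaks that were the widest of their cluster and in 9.76% [7.44, 12.7] of the narrowest. The first and last peaks of the clusters held it in 17.5% [15.2, 19.98] and the inner peaks in 13.1% [11.8, 14.6]. TGTGGT was about as frequent in the widest peaks, 19.5% [16.3, 23.2], as in the narrowest, 17.5% [14.4, 21.1], and was found in 23.7% [21.1, 26.4] of the first and last and 19.8% [18.2, 21.4] of the inner peaks. CAGCTG differed in the same direction as TGACTCA, found in 20.7% [17.38, 24.5] of the widest and 14.02% [11.2, 17.37] of the narrowest peaks. For the first and last peaks its share was 19.5% [17.2, 22.1], against 16.05% [14.6, 17.6] for the inner ones. The uneven placement was thus not particular to TGACTCA. Of the widest peaks 84.3% were in both lists, against 2.85% of the narrowest. Whether the differences by width follow the list was not tested. Start sites were as frequent at the edges (14.1%) as inside (14.3%). By cluster, 300 of 492 held TGACTCA in at least 1 peak, 338 held CAGCTG, 365 held TGTGGT and 168 held all 3, while 28 held none. TGACTCA was in more than 1 peak of 127 clusters, and in only 10 clusters was it in the majority of the peaks. The rule gives every cluster several peaks that could each hold a motif, which raises such counts by itself. Counts expected from the shares by peak were not worked out. The counts by cluster are therefore descriptions and do not show that motifs gather in clusters.

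Genes that start in dense clusters were counted by function. Of the 20807 autosomal protein-coding genes, 249 (1.20%) had their start site in a cluster. Among the 293 autosomal genes of 7 lists of muscle, adhesion, matrix and signalling genes, 29 (9.90% [6.98, 13.9]) did so. The lists were put together by function with earlier results of these data known, and they were not tested.

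Genes of the matrix and of the actin cytoskeleton were among those that started in clusters, whereas none of the genes in the sarcomere and muscle membrane list did. Of its 40 sarcomere and muscle membrane genes, 0 started in a cluster, which allows a share of up to 7.50%, and of 25 myogenic regulators, 1 did, which was Myf6. The 0 holds for that list only, since Flnc, a filamin of the Z-disc that was counted under actin, and Ankrd1 and Xirp1, muscle genes in none of the lists, started in clusters of 5, 7 and 5 peaks. These 3 were chosen after their values were seen. The matrix list had 8 of 47 (17.02% [8.89, 30.1]), the actin filament and focal adhesion list 7 of 53 (13.2% [6.55, 24.8]), growth factors and their receptors 6 of 48, the AP-1, Runx, Tead and Klf factors 5 of 40, and the TGF-beta, BMP and Smad list 2 of 40. The lists taken for comparison had 0 of 52 for neuronal genes, 0 of 38 for blood and immune genes and 2 of 48 for cytosolic ribosomal proteins, where 0 allows up to 5.77% and 7.89%. Shares of 0 in lists of this size are therefore not below the 1.20% of all genes at this number of genes.

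**Figure D5:**
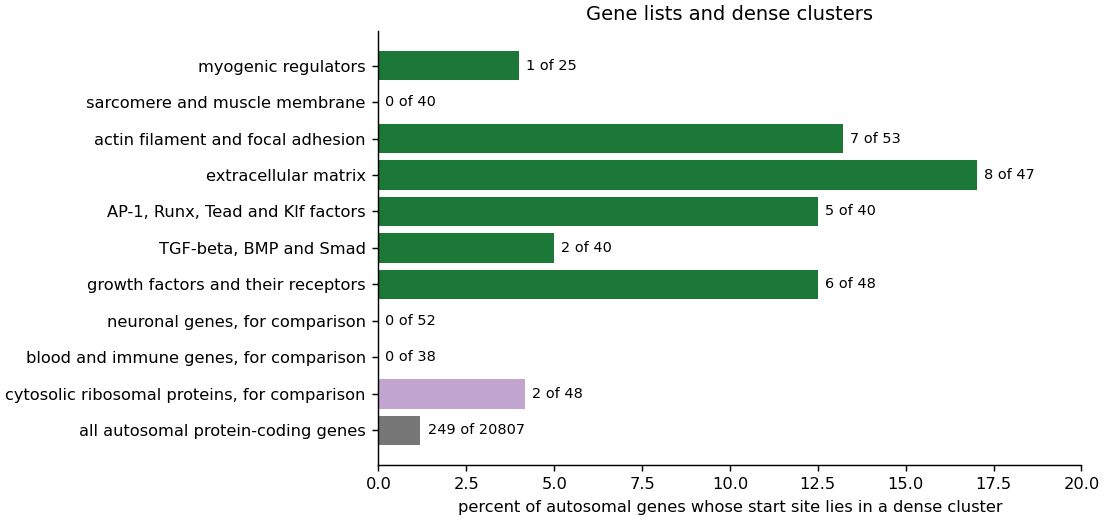
Percent of the autosomal genes of each list whose start site lies in a dense cluster, with the counts at the bars, where green bars are the 7 lists of interest, violet those for comparison and grey all protein-coding genes. The matrix list is highest with 8 of 47, and the sarcomere, neuronal and blood lists are at 0.

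In the matrix list, Sparc, a collagen-binding glycoprotein, lay in the cluster with the most peaks. Its 12 peaks at chr11:55414514-55429143 comprised 3 of both lists, 4 of the 30-cycle list only and 5 of the 36-cycle list only, and 7 lay in the gene beyond 1 kb from the start site. Ccn1, a matricellular gene that serum induces, had 10 peaks at chr3:145632812-145653379, of which 3 were in both lists and 4 lay past its 3′ end. Timp2, an inhibitor of metalloproteinases, had 7 peaks with 6 of them upstream. Loxl1, a lysyl oxidase, had 7 peaks with 5 of them in the gene beyond 1 kb from the start site. The same list thus held upstream, intragenic and downstream arrangements. Col4a1 and Col4a2, which start next to each other in opposite directions, shared 1 cluster of 6 peaks.

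In the actin and adhesion list, Tns3, a tensin of focal adhesions, was at the edge of a cluster of 10 peaks, 9 of them upstream, at chr11:8663552-8706473. Actg1, a cytoplasmic actin, had 8 peaks at chr11:120332170-120353908, of which 3 were in both lists, 3 lay upstream and 3 past the gene. Itga5, the fibronectin receptor subunit, had 7 peaks and 0 of them in both lists. Cnn2, a calponin, had 6 peaks over 9.76 kb, with 3 in both lists.

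Among transcription factors, Fosl1, which encodes the AP-1 factor FRA-1, had 7 peaks at chr19:5429444-5457201, 4 of them upstream, and 2 peaks of this cluster held TGACTCA. Myc had 6 peaks at chr15:61983342-61999589, 4 of them in both lists. Klf4 had 6 peaks at chr4:55531118-55543210, 4 of them upstream and 1 in both lists. Jun, described above, had 6 peaks of which none was shared. Peaks shared by both lists were thus most frequent at Myc among these 4 genes.

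Ligands and regulators of growth factor signalling were also among the list genes in clusters. Dusp4, a phosphatase of MAP kinases, had 8 peaks over 10.4 kb, 2 of them in both lists. Irs1, the adaptor of the insulin receptor, had 7 peaks over 6.53 kb. Of these, 5 lay in the gene beyond 1 kb from the start site, and 3 were in both lists. Pdgfc, a ligand of PDGF receptors, had 7 peaks over 20.1 kb, 4 of them upstream, and Csf1, a macrophage growth factor, had 6 over 23.1 kb. Gdf15 and Inhba, ligands of the TGF-beta superfamily, had 5 peaks each, with 2 and 0 in both lists. Over the 29 genes, 26 had a peak within 1 kb of their start site. Counted gene by gene, the clusters put 69 of 190 peaks more than 1 kb upstream of the list gene, 41 at its start site, 63 further inside the gene and 17 past its end.

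Some gene families had several members in dense clusters, and these families were chosen after the values were seen. The share of all autosomal protein-coding genes was 1.20%, and neighbouring genes in 1 cluster do not count independently. Of 39 autosomal Hox genes, 9 started in 2 clusters, the one in Hoxa described above and one of 10 peaks at chr15:102945752-102981263 with Hoxc5, Hoxc9, Hoxc10 and Hoxc11. Of 67 replication histone genes, 15 started in 3 clusters on chromosome 13. Histone genes of 1 type are similar in sequence, and whether reads mapped uniquely there was not tested. Of 13 S100a genes, which encode small calcium-binding proteins, 5 started in 2 clusters. Members of 2 further families lay apart on different chromosomes, with 3 of 6 Ccn genes in 3 clusters and 3 of 16 Klf genes in 3 clusters. Tmpo and Nrm, which encode proteins of the inner nuclear membrane, lay in clusters of 11 and 9 peaks with 7 and 4 in both lists. Both genes were also chosen after their values were seen. Genes of that membrane were not counted as a group, so no share can be given for them.

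Several miRNA genes lay in dense clusters. Of 919 autosomal miRNA genes of RefSeq, 22 (2.39%) had their hairpin in 1 of 19 clusters, and a share of this size can move with a few loci. Counted by start site in GENCODE, it was 37 of 2054 miRNA genes (1.80% [1.31, 2.47]), against 1.20% of protein-coding genes. Mature sequences are printed for some of the 22, from RefSeq on GRCm38, 5′ to 3′, with the seed (bases 2 to 8) in capitals. This choice was made after the clusters were known.
mmu-miR-21a-5p: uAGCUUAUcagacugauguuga
mmu-miR-29a-3p: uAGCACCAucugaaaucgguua
mmu-miR-29b-3p: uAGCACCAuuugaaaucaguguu
mmu-miR-196a-5p: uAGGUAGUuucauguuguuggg
mmu-miR-196b-5p: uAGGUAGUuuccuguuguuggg
mmu-miR-125a-5p: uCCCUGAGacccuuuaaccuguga
mmu-miR-125b-5p: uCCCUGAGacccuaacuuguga
mmu-let-7e-5p: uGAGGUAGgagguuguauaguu
mmu-miR-199a-5p: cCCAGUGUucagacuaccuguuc
mmu-miR-214-3p: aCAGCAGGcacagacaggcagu
The seed AGCACCA was shared by miR-29a and miR-29b, whose genes lie in 1 cluster. The seed AGGUAGU was shared by miR-196a and miR-196b, whose genes lie in the Hoxc and the Hoxa cluster on different chromosomes. CCCUGAG was shared by miR-125a and miR-125b, from clusters of 5 peaks each on chromosomes 17 and 9. The chromosome 17 cluster, with Mir125a and Mirlet7e, had 0 peaks in both lists, and that with Mir125b-1 had 3. A cluster of 5 peaks on chromosome 1 held both Mir199a-2 and Mir214 within Dnm3, and a peak of the 36-cycle list only overlapped the hairpin of Mir199a-2. Mir196b, Mir125b-1 and Mir199a-2 had a peak that overlapped their hairpin, at Mir196b only by the edge of the peak. The nearest peak was 219 bp from the hairpin of Mir29a and 2063 bp from that of Mir196a-2.

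Other classes of genes were counted as well. Start sites of 63 of 5209 lincRNA genes (1.21% [0.947, 1.54]) lay in a cluster, which is the share of protein-coding genes within its interval. For processed pseudogenes it was 33 of 8924 (0.370% [0.263, 0.519]) and for antisense genes 33 of 2913 (1.13% [0.808, 1.59]). Genes of the class processed transcript had 16 of 753 (2.12% [1.31, 3.42]), so a share above that of protein-coding genes was not particular to miRNA genes. Peaks in dense clusters were over 50% repeat-masked in 7.11% [6.28, 8.04], against 12.98% [12.3, 13.7] of single peaks, and had a median GC content of 48.5% against 46.4%.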

How the data were processed

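The deposited files are lists of called peaks with chromosome, start and end, and no counts, signal or score. As the study's methods state, the authors aligned with NextGenMap to GRCm38, kept reads above a mapping quality with SAMtools, and ran MACS2 on each library by itself. The control used in peak calling is not given in the sources used here, and read numbers are unknown.

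Autosomal peaks of both lists that overlapped or touched were joined, and joined peaks up to 12500 bp apart were stitched, with functions checked against bedtools merge. A peak was at a start site if its centre lay within 1 kb of the 5′ end of a gene of GENCODE mouse release 21. Motifs were searched on both strands in the central 200 bp. Of 441 list genes, 428 were matched by symbol, 3 by RefSeq synonym and 10 were not on an autosome. Mature miRNAs came from RefSeq on GRCm38.

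Named were the 12 clusters with the most peaks, the 3 longest, the 3 with the most peaks per kb, up to 4 genes per list, Myod1 and Myf5, and 1 of the 12 is not reported here. Other names are said in the text to be chosen after their values were seen. The members and gene lists were chosen with earlier results of these data known.

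No test was possible with 1 library per condition. Shares have 95% Wilson intervals and differences Newcombe intervals. The stitching and motif search were tested on simulated data. Alternatives were other gaps, minimum numbers of peaks, joining distances, single lists, repeats, chromosome 15, windows, start sites and weights for width or GC content. Versions were bedtools 2.31.1, matplotlib 3.10.9, scipy 1.17.1, pandas 2.3.3, numpy 2.4.6 and python 3.11.15.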

Additional observations from a re-analysis of the deposited data

Results flagged for a closer look

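The rule kept autosomal clusters only, and regions of the same kind were also present outside them. On chromosome X, 263 combined peaks formed 204 stitched regions, of which 3 held 5 or more peaks. The largest of them had 10 peaks at chrX:96077657-96134790. These 3 regions are data that no comparison above used, and they were not described further. On chromosome Y, 4 combined peaks formed 3 regions, and 0 of them held 5 or more.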

How the results depend on the processing

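No paired analysis was possible because the lists of 30 and 36 cycles are single libraries that share an immunoprecipitation. The clusters rest on positions from 1 immunoprecipitation without depth or signal, so their strength cannot be ranked, and peaks of 1 cluster are not independent.

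The number of clusters (492), the share of peaks in them (14.9%), their median span (18.8 kb) and the share with a protein-coding start site (37.0%) depended on the rule. With a gap of 5 kb they were 208, 6.11%, 9.73 kb and 27.4%. With 20 kb they were 732, 23.2%, 30.2 kb and 45.1%. With at least 4 peaks there were 891 clusters with 22.1% of peaks, and with at least 8 there were 110 with 5.09%, a span of 29.9 kb and start sites in 43.6%. Joining peaks up to 500 bp apart left 267 clusters with 8.33%. The 30-cycle list alone gave 281 with 10.02%, and the 36-cycle list alone 212 with 11.05% and start sites in 28.8%. The share of peaks was 13.9% without repeat-rich peaks and 14.4% without chromosome 15. Start sites within 12500 bp of the cluster were found for 51.0%.

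In sharing by both lists, clusters remained above single peaks under all 10 alternatives. The difference was 2.20 points at equal widths, 12.2 with at least 8 peaks and 15.4 with peaks up to 500 bp apart joined.

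The difference in start sites kept its direction in 15 of 16 alternatives and reversed to 0.62 points within 2.5 kb. It was -5.68 with at least 8 peaks, -6.82 with joined peaks, -5.40 for protein-coding genes, -0.82 for every transcript start and -1.88 for peaks of both lists only. The last was chosen after seeing the data, as were weighting clusters equally and leaving out the Malat1 and Neat1 cluster, which moved none of the 5 differences out of its interval.

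TGACTCA was lower in clusters in all 17 alternatives, with differences of -7.58 points with a gap of 5 kb, -7.30 with at least 8 peaks, -6.89 in the 36-cycle list, -3.45 over the whole peak, -3.15 in the central 100 bp, -6.68 over 1 kb from start sites and -3.40 for peaks of both lists. TGTGGT was lower in all 17, with differences of -8.14 with a gap of 5 kb, -2.82 with joined peaks, -3.90 in the 30-cycle list, -1.44 over the whole peak, -3.35 in the central 100 bp and -7.47 over 1 kb from start sites. CAGCTG had no stable direction. It reversed to 0.13 with a gap of 20 kb, 0.17 with at least 4 peaks, 0.54 with joined peaks and 4.40 over the whole peak, and was -2.57 with at least 8 peaks, -3.05 in the 36-cycle list and -2.43 at equal GC content.

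Of the 293 list genes, 49 had their start site within 50 kb of a cluster and 45 overlapped one, against 4.35% and 2.21% of all genes.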
